A study of Mus musculus and Rattus norvegicus with 24 samples.

Results

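The tissue described is the mouse ischaemic penumbra 2 h after the middle cerebral artery was closed for good (permanent occlusion, pMCAO), set against the matching region of sham-operated mice. The penumbra is the tissue bordering the core of a stroke, where blood flow is reduced. The 2 groups were chosen by their sample titles and held 3 animals each, with 1 animal per array, so they are 6 of the 24 arrays of the series. Genes were taken as the symbols with a transcript cluster (a set of probes for 1 transcript) of their own on the array, using the cluster brightest over the 12 mouse arrays where a symbol had several, which gave 22180 genes. Values are log2 expression as deposited, so a difference of 1 is a doubling.

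The animals were adult male C57BL/6 mice of 8 to 10 weeks weighing 21.9 to 29.7 g, anaesthetised with isoflurane. A filament was pushed through the external into the internal carotid artery to close the right middle cerebral artery and was tied in place, so flow was not restored. Sham animals had surgery without the occlusion. A piece of 3 by 3 mm was taken from the penumbra or from the same side of the sham brain and used whole, so each value is an average over all cell types in the piece. Results at 2 h are set in places against those of mice of the same strain at 6 h and of Sprague-Dawley rats of 8 to 12 weeks and 270 to 300 g at 2 h, whose left artery was closed. Each of these comparisons had its own 3 pMCAO and 3 sham animals. No animal carried a transgene, per the labels, and the sources used here do not say how the border of the penumbra was found.

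Loss of oxygen and glucose depolarises neurons and lets calcium in. Calcium entry switches on immediate-early genes, whose transcription needs no new protein: the Fos and Jun families, which pair to form the AP-1 factor, the Egr and Nr4a families, and the neuronal factor Npas4. Proteins that lose their fold release heat shock factor, which binds short repeats in the promoters of chaperone genes. Microglia and vessel cells answer injury with chemokines, cytokines and prostaglandins. MicroRNAs are short RNAs cut from longer transcripts that bind messenger RNAs through bases 2 to 8, the seed, and lower their output. A large set of them is made from the maternal copy of an imprinted region between the genes Dlk1 and Dio3 and is abundant in neurons.

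Limma, fitted to all 12 mouse arrays with Benjamini-Hochberg adjustment and a threshold of adjusted p 0.05, called 66 genes, 0.298% of those tested. Of these, 33 rose and 33 fell, 0.149% each way. The median rise was 0.98 and the median fall -0.81 on the log2 scale, while the median difference over all 22180 genes was -0.01 with quartiles of -0.07 and 0.07. Of all genes 10505 had a difference above 0 and 11555 below 0, beside which the counts of list members on each side of 0 are to be read. All 66 had 3 pMCAO arrays wholly on 1 side of the 3 sham arrays, an arrangement found in 6.24% of all genes above and 8.39% below. The calls were made from these same values, so this separation adds no support to them. The rises were led by Hspa1a, Hspa1b, Npas4, Erdr1, the chemokine Ccl3 and the AP-1 factors Fosb and Fos. Of the 33 falls 24 were microRNA genes. At an unadjusted p under 0.05 there were 1711 genes.

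**Figure D1:**
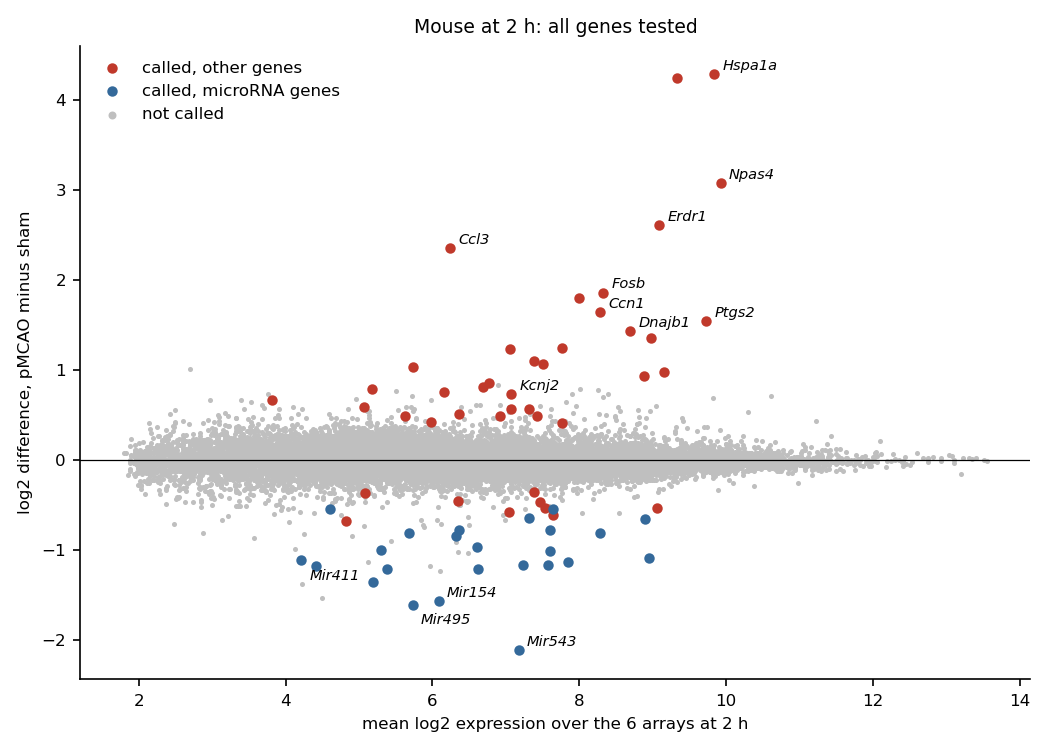
Log2 difference between pMCAO and sham at 2 h (vertical axis) against the mean log2 level over the 6 arrays (horizontal axis) for the 22180 genes tested, 1 point per gene. Called microRNA genes (blue) all lie below 0, called genes of other kinds (red) reach 4.29 for Hspa1a, and grey points were not called.

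Array medians at 2 h lay between 6.03 and 6.06, and no pair of arrays shared values at more than 2.54% of clusters. The 8 pan-neuronal markers had a mean between 11.18 and 11.24 on every array, as neural tissue gives, while no marker measured here bears on the border of the penumbra. Choroid plexus markers differed between arrays of the same group: their mean over 7 markers was 7.61 in pMCAO replicate 2 and 8.00 in sham replicate 1, against 6.14 to 6.43 in the other 4. Markers of striatal projection neurons, 10 genes, averaged 7.77, 7.29 and 7.31 in pMCAO and 7.65, 7.59 and 7.60 in sham, and with this mean as a covariate 35 genes were called. The part of choroid plexus in the results below was not tested. With 3 animals a group an exact permutation test of a single gene cannot go below 0.1, so each call rests on the spread shared across groups by limma. When 1 of the 6 arrays was left out, 23 to 42 genes were called, and 11 rises and 10 falls passed in all 6 of these fits. These fits kept the 6 h arrays, which share in the estimate of spread. From the 6 arrays at 2 h alone 23 genes were called, 21 of them among the 66, and Gem, Mir154, Mir323, Mir496a, Mir543, Mir667 and Mir1197, which had passed without any 1 array, did not pass (limma adjusted p 0.0538 to 0.0832).

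A pair of heat shock genes showed the largest rises of any gene. Hspa1a and Hspa1b encode the inducible Hsp70 chaperones, which hold unfolded proteins until they refold. Hspa1a read 11.45, 12.45 and 12.04 in the 3 pMCAO mice and 8.05, 7.56 and 7.46 in the sham mice. Every pMCAO value was far above every sham value. The difference was 4.29 ± 0.23 (SE, n = 3 a group, 19.6-fold, limma adjusted p 1.08e-05). Hspa1b read 10.97, 11.96 and 11.46 against 7.54, 7.12 and 6.98, a difference of 4.25 ± 0.24 with the same adjusted p. These neighbouring genes are near-identical copies, so probes may not separate them and their rises are not independent.

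Their co-chaperone Dnajb1, an Hsp40 protein that hands clients to Hsp70, read 9.36, 9.83 and 9.05 in pMCAO against 7.93, 8.03 and 7.98 in sham and rose by 1.43 ± 0.23 (limma adjusted p 0.0295). Hspb1, the small chaperone Hsp27, read 6.10, 6.61 and 6.03 against 5.07, 5.10 and 5.47 and rose by 1.03 ± 0.18 (0.0446). Another cluster with that symbol, brighter in sham at 2 h but dimmer over the 12 mouse arrays, read 5.94, 6.06 and 6.09 against 6.11, 5.77 and 5.93, with overlap. The choice of cluster therefore rested on the 6 h arrays. There the chosen cluster read 7.40, 7.08 and 6.72 in pMCAO against 5.60, 5.67 and 5.58 in sham, so the pMCAO arrays had a part in the choice. With the mean of both clusters Hspb1 did not pass (limma adjusted p 0.12). These were the 4 called of 25 measured heat shock proteins and co-chaperones, and 0 fell. The median difference of the 25 was 0.14, and 21 lay above 0. Hsph1, an Hsp110 that exchanges the nucleotide of Hsp70, read 10.43, 10.72 and 10.52 against 9.98, 10.02 and 10.08 and had a difference of 0.53 at adjusted p 0.0553. Bag3, another partner of Hsp70, had 0.33 (adjusted p 0.342), and Dnajb4 0.23 (0.34). Hspa8, the constitutive Hsp70, had 0.06, but a cluster annotated to both Hspa8 and the small nucleolar RNA Snord14e was 1.32 higher (0.0292 with all clusters tested). The 21 not called had differences between -0.08 and 0.53, all far below those of the inducible Hsp70 pair. Hspa1a and Hspa1b passed without any 1 array, while Dnajb1 was lost without any array but pMCAO replicate 3 (limma adjusted p 0.0785 to 0.117) and Hspb1 without any 1 of the 6 (0.0708 to 0.183).

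The promoters of these genes were searched for the heat shock element, the repeat that heat shock factor binds, and those with a match are shown, with that of Jun, a risen AP-1 gene that also had one. Both Dnajb1 promoters in the table had no match. The 150 bases before the start site are given from RefSeq, assembly GRCm38.p6, with matches to GAANNTTC in capitals. Windows are chr17:34972157-34972306 (minus strand) for Hspa1a, chr17:34959239-34959388 (minus) for Hspa1b, chr5:135887769-135887918 (plus) for Hspb1 and chr4:95052223-95052372 (minus) for Jun.
Hspa1a: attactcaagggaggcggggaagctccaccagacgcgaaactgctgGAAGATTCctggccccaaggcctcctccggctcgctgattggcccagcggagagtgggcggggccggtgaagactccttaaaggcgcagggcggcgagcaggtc
Hspa1b: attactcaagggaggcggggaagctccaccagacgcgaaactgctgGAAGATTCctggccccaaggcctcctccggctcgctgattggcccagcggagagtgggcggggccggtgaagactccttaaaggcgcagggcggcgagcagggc
Hspb1: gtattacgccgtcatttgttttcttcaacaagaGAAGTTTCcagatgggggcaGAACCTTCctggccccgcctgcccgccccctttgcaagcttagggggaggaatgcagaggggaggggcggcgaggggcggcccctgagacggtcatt
Jun: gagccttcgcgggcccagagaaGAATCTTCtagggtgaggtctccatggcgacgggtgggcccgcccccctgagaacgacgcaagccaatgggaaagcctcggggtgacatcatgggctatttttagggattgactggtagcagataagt
Hspa1a and Hspa1b were identical at 149 of these 150 bases. Over windows of 300 bases, 250 before to 50 after the start, GAANNTTC was found in 7.86% of 32851 RefSeq promoters and in those of 4 risen genes, Hspa1a, Hspa1b, Jun and, at 2 places, Hspb1. The mirrored form TTCNNGAA, in 8.52% of promoters, was found in that of Ccn1. Both strands read alike for these palindromes. Either form was found for 5 of the 28 risen genes with a promoter in the table and in 15.1% of all promoters. The cyclic AMP element TGACGTCA was found in 1.79% of promoters and in those of Btg2 and Ppp1r15a, the serum response (CArG) box in 1.63% and in that of Zfp36, and the AP-1 site TGANTCA in 7.81% and in those of Emp1 and Il1a. Fallen genes other than microRNA genes had matches too. Of 8 with a promoter in the table, GAANNTTC was found for 1, TTCNNGAA for 1, the AP-1 site for 2 and the other motifs for 0. The 28 risen genes had 31 promoters, so counts of genes and shares of promoters are not the same measure. A match describes the letters and does not show that a factor was bound.

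Of 9 measured AP-1 factors 4 rose, 0 fell, and the median difference was 0.73. Fosb read 9.23, 8.93 and 9.60 in pMCAO against 7.05, 7.57 and 7.57 in sham, and Fos 8.65, 8.84 and 9.17 against 6.90, 7.18 and 7.19. Both groups were well apart in each gene. Fosb rose by 1.86 ± 0.23 (limma adjusted p 0.00464) and Fos by 1.80 ± 0.23 (0.00704). Jun, their partner, read 9.44, 9.90 and 9.60 against 8.32, 8.29 and 8.28 and rose by 1.35 ± 0.13 (0.000899). Atf3, a stress-induced member that often represses, read 7.60, 8.05 and 7.34 against 6.52, 6.28 and 6.51 and rose by 1.23 ± 0.16 (0.00704). The other 5 did not pass. Junb had a difference of 0.73 (adjusted p 0.108) and Fosl2 of 0.70 (0.151), each with all pMCAO values above all sham values, while Maff had 0.24, Jund 0.18 and Batf -0.09. Fos, Fosb and Jun passed without any 1 array, and Atf3 was lost only without sham replicate 2 (limma adjusted p 0.0508).

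Npas4, a transcription factor made almost only in neurons upon calcium entry, had the third largest rise. It read 11.16, 11.20 and 12.04 in pMCAO against 8.35, 8.54 and 8.26 in sham, with pMCAO replicate 3 the highest. The difference was 3.08 ± 0.26 (8.48-fold, limma adjusted p 0.000506). Of 16 measured genes in the list of Npas4 and effectors of neuronal activity, 2 rose, 0 fell and the median difference was 0.24, with 14 above 0. The second riser was Rgs2, which shortens signalling through G proteins: 9.57, 9.30 and 10.09 against 8.64, 8.73 and 8.65, a rise of 0.98 ± 0.16 (0.0309). The synaptic effectors had not reached the threshold. Bdnf, the neurotrophin that Npas4 is known to induce, read 6.77, 6.68 and 7.25 against 6.15, 6.25 and 6.46, a difference of 0.61 (adjusted p 0.292). Nptx2, which clusters glutamate receptors, had 0.59 (0.557), with its pMCAO replicate 3 at 9.47 and the other pMCAO values at 8.49 and 8.51. Csrnp1 had 0.41 (0.182), Rgs4 0.26 (0.423), and Arc, a regulator of synaptic receptors, 0.21. Npas4 passed without any 1 array. Rgs2 was lost without pMCAO replicate 1 or any 1 sham array (limma adjusted p 0.0724 to 0.132), and a dimmer Rgs2 cluster read 4.93, 4.98 and 5.58 against 4.69, 4.92 and 4.59.

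All 13 measured genes of the Egr and Nr4a families and related targets of serum response factor had differences above 0, with a median of 0.45, but 2 passed. Btg2, which slows proliferation, read 8.26, 7.88 and 7.99 against 6.84, 7.06 and 7.03 and rose by 1.07 ± 0.11 (limma adjusted p 0.00143). Nr4a3, an orphan nuclear receptor, read 9.45, 9.29 and 9.31 against 8.23, 8.47 and 8.55 and rose by 0.93 ± 0.13 (0.0136). Its relatives were more scattered. Nr4a1 read 10.92, 10.84 and 11.15 against 10.02, 10.48 and 10.29, a difference of 0.71 with a 95% interval from -0.01 to 1.42. Nr4a2 had 0.60 (0.09 to 1.11), Egr2 0.78 (0.09 to 1.48) and Egr4 0.64 (0.21 to 1.07). Egr1 had 0.35 with an interval from -0.26 to 0.95, so a doubling lay just outside it. Btg2 passed without any 1 array, and Nr4a3 was lost without pMCAO replicate 1 or 2 or sham replicate 1 or 2 (limma adjusted p 0.0528 to 0.0616).

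**Figure D2:**
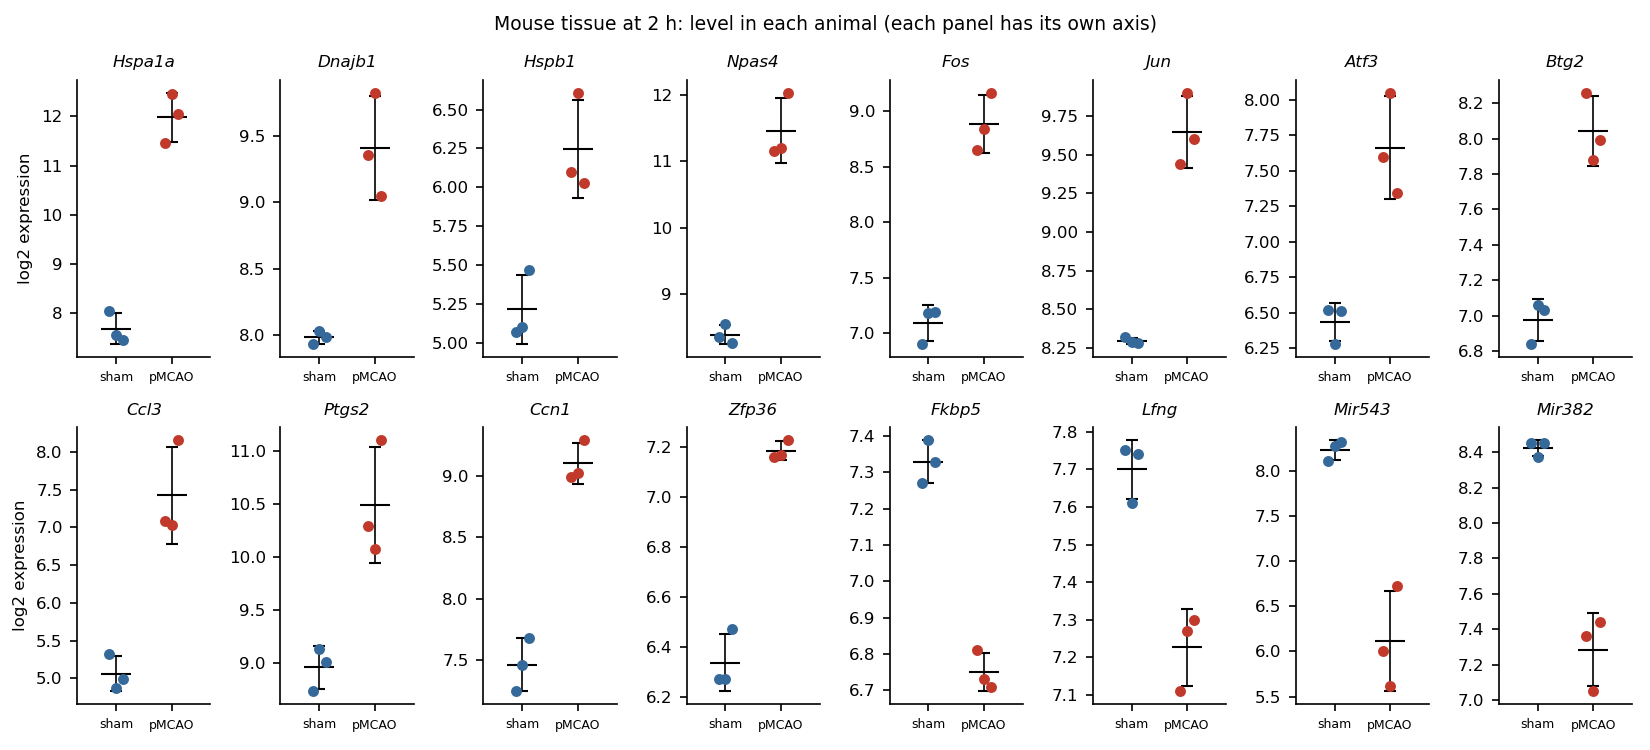
Log2 expression in each animal at 2 h for 16 genes, with sham in blue and pMCAO in red; dots are animals, horizontal bars the group means and error bars the SD, and each panel has its own vertical axis. In every panel the 3 pMCAO animals lie wholly above or wholly below the 3 sham animals, the 4 panels from Fkbp5 to Mir382 being the falls.

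The MAP kinase phosphatases and Sprouty genes, which feed back on these signals, and the Kruppel-like factors gave no call. The share called over all genes was 0.298%, so 0 calls in lists this short does not set them apart. Limma called 0 of 12 MAP kinase phosphatases and Sprouty genes, with 2 at an unadjusted p under 0.05 and a median of 0.08. The largest difference there was that of Dusp6, a phosphatase of ERK, at 0.69: it read 10.00, 10.05 and 10.46 against 9.33, 9.60 and 9.52 (adjusted p 0.466). Dusp1 had 0.43 (0.68). Limma also called 0 of 12 Kruppel-like factors, with 3 at an unadjusted p under 0.05 of which 2 were higher. Klf6 had 0.48 (0.152) and Klf15 -0.30 (0.466). Gem, a small GTPase that dampens calcium channels, did rise: 6.95, 7.33 and 7.02 against 6.38, 6.18 and 6.31, by 0.81 ± 0.10 (0.00407), and it passed without any 1 array. Kcnj2, an inward rectifier potassium channel that steadies the resting potential, was the 1 called of 37 potassium channels. It read 7.31, 7.33 and 7.69 against 6.67, 6.70 and 6.77 and rose by 0.73 ± 0.12 (0.0309), but was lost without any array but pMCAO replicate 1 (0.0744 to 0.127). The median of the 37 channels was -0.03.

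Chemokines and cytokines had begun to change in few members. Ccl3, a chemokine that draws monocytes and neutrophils, read 7.08, 7.03 and 8.16 in pMCAO against 5.32, 4.87 and 4.99 in sham. All pMCAO values were higher and replicate 3 stood above the others. The rise was 2.36 ± 0.36 (5.15-fold, limma adjusted p 0.0229), and it was the 1 called of 26 measured chemokines, whose median was 0.07. Ccl4, its close relative, had 0.22, Ccl2 0.37 (0.481), Ccl7 0.34 (0.315) and Cxcl1 0.17. Il1a, a cytokine that cells release when damaged, read 5.54, 5.64 and 5.53 against 4.80, 4.77 and 4.77 and rose by 0.79 ± 0.13 (0.0394), the 1 called of 23 in the interleukin-1, TNF and interleukin-6 families. Il1b had 0.07, Tnf 0.10 and Il6 0.11, none past the threshold. Ccl3 was lost without pMCAO replicate 3 or any 1 sham array (limma adjusted p 0.0548 to 0.113), and Il1a without any 1 of the 6 (0.0985 to 0.191).

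Among 21 measured genes of NF-kB signalling, its feedback and adhesion, 2 rose, 0 fell and the median was 0.11. Zfp36, which destroys cytokine messenger RNAs, read 7.16, 7.17 and 7.23 against 6.27, 6.27 and 6.47, with little spread in either group and a rise of 0.85 ± 0.07 (limma adjusted p 0.000518). Nfkbiz, a nuclear modifier of NF-kB, read 6.49, 6.78 and 6.58 against 6.10, 6.11 and 6.10 and rose by 0.51 ± 0.09 (0.0446). Cd14, a co-receptor for bacterial and damage signals, had 0.66 (0.271), Rel, an NF-kB subunit, 0.52 (0.321), and Nfkbia, its inhibitor, -0.19. Zfp36 passed without any 1 array, and Nfkbiz was lost without any 1 of the 6 (0.057 to 0.191).

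In the prostaglandin and lipoxygenase list, 1 of 21 rose and 1 fell, with a median of 0.06. The riser was Ptgs2, the inducible cyclooxygenase, at 10.29, 10.08 and 11.11 against 8.73, 9.13 and 9.01. Its rise was 1.54 ± 0.21 (2.90-fold, limma adjusted p 0.0128), with pMCAO replicate 3 the highest. The faller was Alox12b, a lipoxygenase known for building the barrier of skin, at 7.45, 7.24 and 7.30 against 7.90, 7.96 and 7.98, a difference of -0.62 ± 0.11 (0.0446). The synthases that act after cyclooxygenase did not pass: Ptges had 0.02, Ptges2 0.06, Ptgis -0.02 and Tbxas1 0.02. Ptgs2 was lost without sham replicate 1 or 3 (limma adjusted p 0.0568 to 0.0616), and Alox12b without any 1 of the 6 (0.0724 to 0.213).

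Of the secreted proteins of the matrix a few rose: 3 of 20 matricellular, protease and fibrinolysis genes were called, 0 fell and the median was 0.08. Ccn1 (Cyr61), which signals from the matrix through integrins, read 8.99, 9.02 and 9.29 against 7.25, 7.46 and 7.68 and rose by 1.64 ± 0.15 (3.11-fold, limma adjusted p 0.0006). Adamts1, a protease that cuts proteoglycans, read 8.16, 8.13 and 7.52 against 6.92, 6.71 and 6.88 and rose by 1.10 ± 0.16 (0.019). Thbs1, an inhibitor of vessel growth, read 6.71, 6.61 and 6.26 against 5.67, 5.76 and 5.91 and rose by 0.75 ± 0.12 (0.0287). In the last 2 genes pMCAO replicate 3 was the lowest of its group. Relatives of these genes differed less: Ccn2 had -0.11, Thbs2 0.00, Adamts9 0.47 (adjusted p 0.271), Adamts4 -0.02 and Adamts5 0.00. Mmp9, a protease tied to leakage of the blood-brain barrier, had 0.15, and Plat, the tissue plasminogen activator, 0.06. Ccn1 passed without any 1 array. Adamts1 (0.0579 to 0.0994) and Thbs1 (0.0605 to 0.14) were lost without any array but pMCAO replicate 3.

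Stress genes outside the chaperones gave 1 call each way in the list of Gadd45 and p53 targets (11 measured, median 0.04, and 0.00 after quantile normalization). Gadd45g, a sensor of growth arrest and damage, read 8.30, 8.17 and 8.70 against 7.16, 7.11 and 7.19 and rose by 1.24 ± 0.12 (limma adjusted p 0.000909). Gadd45b read 8.02, 8.51 and 8.26 against 7.42, 7.50 and 7.68, a difference of 0.73 (0.151). Trp53inp1, a p53 cofactor in cell death and autophagy, fell: 7.23, 7.28 and 7.30 against 7.81, 7.86 and 7.75, a difference of -0.54 ± 0.08 (0.0266). Cdkn1a, the best known p53 target, had -0.11. Ppp1r15a (Gadd34), which restores protein synthesis after stress, read 7.15, 7.21 and 7.11 against 6.75, 6.60 and 6.66 and rose by 0.49 ± 0.08 (0.0404). It was the 1 called of 15 genes of the unfolded protein and integrated stress responses, whose median was 0.04: Ddit3 had 0.26, Hspa5 0.25 and Atf4 0.02. Gadd45g passed without any 1 array, while Trp53inp1 (0.0721 to 0.127) and Ppp1r15a (0.0909 to 0.191) were lost without any 1 of the 6.

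The remaining rises belong to no single list. Erdr1, a stress-related gene of the sex chromosomes' shared region, read 10.48, 10.47 and 10.22 in pMCAO against 8.72, 7.96 and 6.66 in sham. Its sham animals were widely spread, and the rise was 2.61 ± 0.41 (limma adjusted p 0.0266). A second cluster, brighter at 2 h but dimmer over the 12 mouse arrays, read 10.10, 10.04 and 9.87 against 9.60, 9.13 and 8.91, a smaller difference of 0.79. Erdr1 was lost without any 1 pMCAO array or sham replicate 2 (0.0714 to 0.115). Nfil3, a clock output repressor and the 1 called of 18 clock genes, read 7.34, 7.29 and 7.40 against 6.67, 6.75 and 6.94 and rose by 0.56 ± 0.10 (0.0446). Emp1, a membrane protein also found in reactive astrocytes, read 6.16, 6.28 and 6.15 against 5.87, 5.69 and 5.76 and rose by 0.42 ± 0.08 (0.0494). A dimmer Emp1 cluster read 2.84, 2.57 and 2.79 against 2.43, 2.68 and 2.55, with overlap. Spty2d1, a histone chaperone, read 8.02, 7.97 and 7.93 against 7.52, 7.59 and 7.59 and rose by 0.41 ± 0.06 (0.0282). These 3 were lost in every fit that left out 1 array (limma adjusted p 0.0605 to 0.182, 0.0886 to 0.237 and 0.0642 to 0.116).

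Another 5 rises lay between 0.49 and 0.66, and each was lost without any array but 1. Asb4, an adaptor for protein degradation, rose by 0.59 ± 0.10 (limma adjusted p 0.0446). Ddit4l, an inhibitor of mTOR signalling, read 7.43, 7.60 and 7.78 against 7.05, 6.98 and 7.06 and rose by 0.57 ± 0.09 (0.0309). Pgm2, a sugar phosphate mutase, rose by 0.49 ± 0.08 (0.0404), and the Notch-family repressor Hes3 by 0.49 ± 0.08 (0.0313). The olfactory receptor gene Olfr657 read 3.95, 4.36 and 4.15 against 3.36, 3.61 and 3.50, low levels for which no detection call was used, and rose by 0.66 ± 0.11 (0.0288). The array whose removal kept the call was pMCAO replicate 3 for Hes3 and pMCAO replicate 1 for the others. Adjusted p after the removals that ended the call ran from 0.115 to 0.191 for Asb4, from 0.1 to 0.143 for Ddit4l, from 0.116 to 0.191 for Pgm2, from 0.0994 to 0.167 for Hes3 and from 0.0651 to 0.116 for Olfr657.

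**Figure D3:**
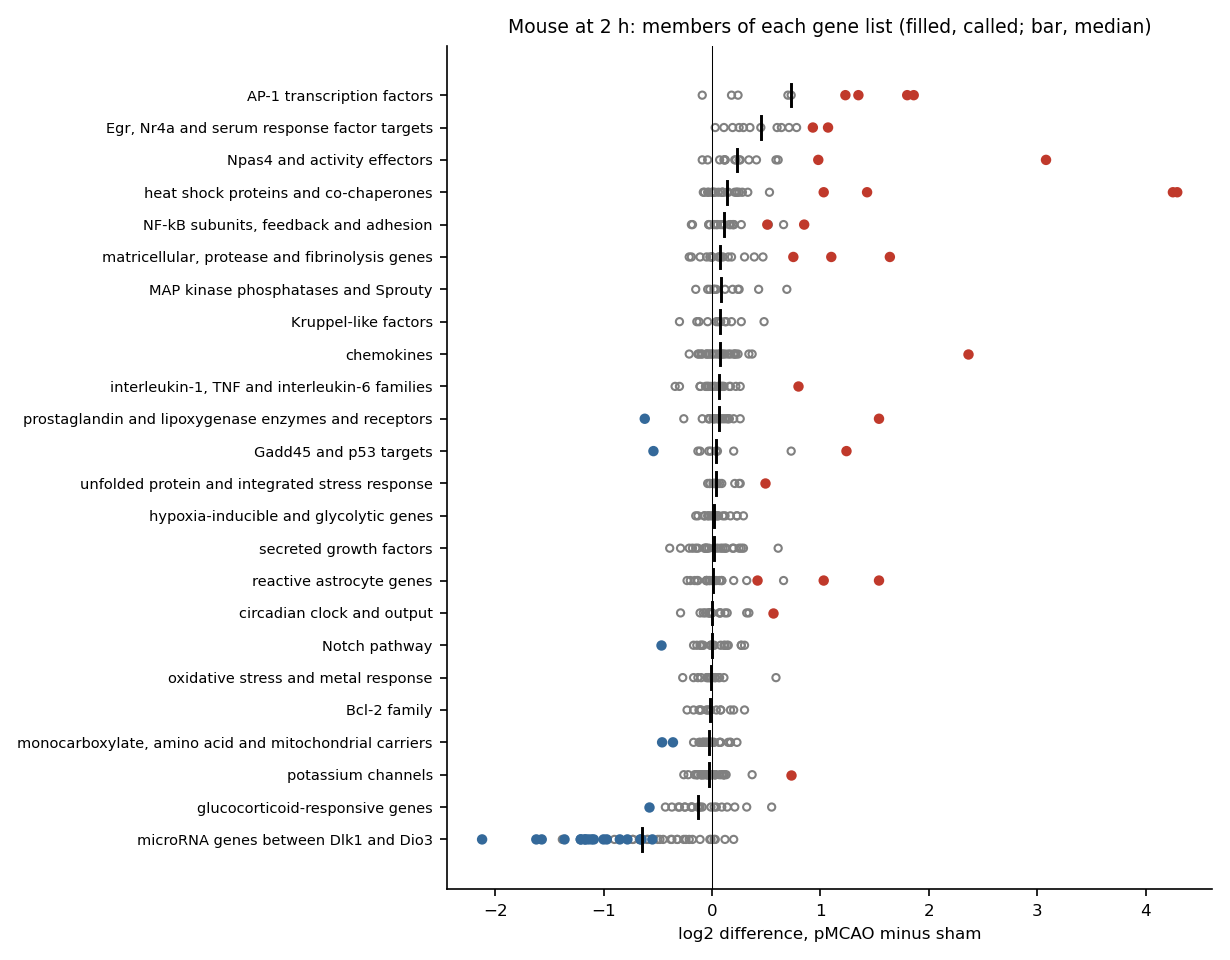
Log2 difference between pMCAO and sham at 2 h for each measured member of the 24 gene lists (1 row per list, ordered by median). Filled points were called (red higher, blue lower), open points were not, and the vertical bar is the list's median; AP-1 factors have the highest median, 0.73, and microRNA genes between Dlk1 and Dio3 the lowest, -0.65.

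Of the 33 falls, 9 were not microRNA genes. Fkbp5, a brake on the glucocorticoid receptor that glucocorticoids induce, read 6.81, 6.73 and 6.71 in pMCAO against 7.27, 7.39 and 7.33 in sham. The groups were far apart for their spread, and the difference was -0.58 ± 0.10 (limma adjusted p 0.0309). It was the 1 called of 22 glucocorticoid-responsive genes, whose median was -0.13, with 15 below 0, beside 11555 of all 22180 genes. The enzyme Sult1a1 read 6.83, 6.75 and 6.82 against 7.22, 7.26 and 7.21, a difference of -0.43 (0.0949). Hif3a had -0.37 (0.498), Arrdc2 -0.31 (0.466) and Tsc22d3 -0.18, while Errfi1, a brake on the EGF receptor, had 0.55 (0.132) and the receptor gene Nr3c1 itself 0.21 (0.357). Fkbp5 was lost without any 1 of the 6 arrays (0.0724 to 0.151).

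Lfng, a glycosyltransferase that tunes Notch receptors, read 7.11, 7.27 and 7.30 against 7.75, 7.61 and 7.74, a difference of -0.47 ± 0.08 (limma adjusted p 0.0309). It was the 1 called of 20 listed Notch pathway genes, whose median was 0.00. The list did not hold Hes3, which rose. Slc25a13, the mitochondrial aspartate and glutamate carrier citrin, read 6.11, 6.23 and 6.01 against 6.58, 6.63 and 6.51, a difference of -0.46 ± 0.07 (0.0295). Slc16a14, of the monocarboxylate transporter family, had -0.36 ± 0.06 (0.0424), and these were the 2 called of 28 carriers, whose median was -0.03. Rhou, a GTPase of the cell skeleton, read 8.74, 8.88 and 8.73 against 9.27, 9.36 and 9.35, a difference of -0.54 ± 0.09 (0.0375). The keratin Krt25 had -0.37 ± 0.07 (0.048) and the uncharacterised gene 9930111J21Rik2 -0.68 ± 0.10 (0.0173). Lfng (0.0642 to 0.156), Slc16a14 (0.0951 to 0.207) and Rhou (0.0874 to 0.165) were lost without any 1 of the 6 arrays, Slc25a13 without any but pMCAO replicate 2 (0.0799 to 0.142), Krt25 without any but sham replicate 2 (0.0968 to 0.213), and 9930111J21Rik2 without pMCAO replicate 2 or sham replicate 1 or 2 (0.0528 to 0.0716).

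MicroRNA genes made up most of the falls. Of 43 measured microRNA genes between Dlk1 and Dio3, 18 fell and 0 rose, with a median difference of -0.65 and 39 below 0. Of 440 microRNA genes elsewhere 6 fell and 0 rose, with a median of -0.02. Over all genes 0.149% fell. Every pMCAO value lay below every sham value in 32 of the 43 and 67 of the 440, beside 8.39% of all genes. The difference was not tested between these lists. The array measured total RNA with probes against microRNA genes, and the files do not show whether a value stems from the mature form, the hairpin or the longer transcript.

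Mature forms are shown for the genes on which the result turns: those with large falls between Dlk1 and Dio3, one for a shared seed, and 3 called elsewhere, from RefSeq, assembly GRCm38.p6, with the seed in capitals.
mmu-miR-543-3p: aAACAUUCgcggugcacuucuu
mmu-miR-495-3p: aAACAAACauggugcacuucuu
mmu-miR-154-5p: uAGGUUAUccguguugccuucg
mmu-miR-379-5p: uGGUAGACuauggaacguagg
mmu-miR-323-3p: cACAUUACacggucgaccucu
mmu-miR-1197-5p: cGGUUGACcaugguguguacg
mmu-miR-758-5p: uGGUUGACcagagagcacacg
mmu-miR-382-5p: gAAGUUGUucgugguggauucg
mmu-miR-376a-3p: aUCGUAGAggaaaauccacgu
mmu-miR-376b-3p: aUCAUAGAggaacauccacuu
mmu-miR-30e-5p: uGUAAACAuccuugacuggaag
mmu-miR-23b-5p: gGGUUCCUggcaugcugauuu
mmu-let-7e-5p: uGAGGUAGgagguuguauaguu
All 24 called microRNA genes matched the table, with 47 mature forms. For Mir23b only the 5p form was in the table, so its 3p form was not part of the comparison of seeds. The only seed that 2 of these genes shared was GGUUGAC, in miR-1197-5p and miR-758-5p, so the falls were not those of a single seed family. Mir376a and Mir376b have like mature sequences, and their probes may share signal.

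Mir543 had the largest fall. It read 6.01, 5.62 and 6.72 in pMCAO against 8.11, 8.27 and 8.32 in sham, with every pMCAO value far below every sham value. The difference was -2.12 ± 0.22 (4.34-fold lower, limma adjusted p 0.00191). Mir154 read 5.44, 4.80 and 5.66 against 6.77, 6.93 and 6.90, a difference of -1.57 ± 0.18 (0.0035). Mir382 read 7.36, 7.05 and 7.44 against 8.45, 8.37 and 8.45, a difference of -1.14 ± 0.11 with the lowest adjusted p of the falls, 0.000812. In all 3 genes pMCAO replicate 2 was the lowest and replicate 3 the highest. Mir495 read 4.33, 4.69 and 5.75 against 6.57, 6.54 and 6.51, a difference of -1.62 ± 0.28 (0.0404).

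The others that passed without any 1 array were Mir379 (-1.36), Mir1197 (-1.21), Mir323 (-1.21), Mir667 (-1.09), Mir380 (-0.97) and Mir496a (-0.78), beside Mir543, Mir154 and Mir382, making 9 of the 18. Mir379 read 4.43, 4.34 and 4.78 against 5.70, 6.15 and 5.77. Mir667 read 8.32, 8.15 and 8.77 against 9.52, 9.47 and 9.51, so the falls were seen at low and high readings alike. Sham means of the genes that fell ran from 4.77 to 9.50 with a median of 7.16, and those of the 25 not called from 3.97 to 9.77 with a median of 7.08.

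The other 9 of the 18 were lost in most fits that left out 1 array. Mir300 (-1.17) was lost without pMCAO replicate 1 or 2 or sham replicate 2 or 3 (limma adjusted p 0.097 to 0.14). Mir495 (0.0894 to 0.191), Mir376b (-1.17, 0.0534 to 0.111), Mir381 (0.0534 to 0.212) and Mir377 (-0.85, 0.0654 to 0.117) were lost without any array but pMCAO replicate 3, and Mir329 (-0.66, 0.0551 to 0.0992) without any but pMCAO replicate 1. Mir376a (-1.11, 0.0525 to 0.159), Mir654 (-0.65, 0.108 to 0.191) and Mir758 (-0.55, 0.0724 to 0.2) were lost without any 1 of the 6. Mir381 read 4.81, 4.48 and 5.11 against 5.51, 5.88 and 6.00. In the fits that left out 1 array 9 to 15 of the region's genes were called, and from the 6 arrays at 2 h alone 4 were: Mir379, Mir380, Mir382 and Mir654. Dimmer clusters of 2 genes also read lower in pMCAO: Mir376a at 2.64, 2.22 and 2.81 against 3.28, 3.04 and 2.97, and Mir380 at 3.15, 3.18 and 2.79 against 3.28, 3.72 and 3.62. These are low readings, and neither cluster was called with all clusters tested (limma adjusted p 0.57 and 0.435).

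Among genes with a cluster of their own, the falls in the region lay in a single run of neighbours. In the gene order of RefSeq (GRCm38.p6), split at gaps of over 10000 bases, the 43 genes form 4 groups. The 32 genes from Mir379 to Mir409 held all 18 falls, with 31 below 0, 28 with every pMCAO value below every sham value, and a median of -0.82. The 7 genes from Mir673 to Mir3070b nearest Meg3 held 0 falls and had a median of -0.21, the 3 genes Mir341, Mir1188 and Mir370 0 falls and -0.02, and Mir882 alone had 0.12. Whether the groups differ was not tested. In the run of 32 the exception was Mir299a at 0.02, which lies between Mir411 (-1.38, limma adjusted p 0.076) and Mir380. Mir487b, in the same run, read 8.03, 7.48 and 7.72 against 8.35, 8.29 and 8.37 and missed the threshold with adjusted p 0.0501.

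None of the region's long transcripts with a cluster of their own was called. Meg3, the imprinted long RNA at its start, had a difference of 0.18 (95% interval 0.03 to 0.32, limma adjusted p 0.549) and Rian, the long RNA that hosts its small nucleolar RNAs, 0.11 (-0.03 to 0.24). The 5 measured small nucleolar RNAs had 0.07 to 0.25, and the border genes Dlk1 and Dio3 -0.11 and -0.01, none called. The intervals of Meg3 and Rian held no fall as large as the median of the 18. Both lie before the run from Mir379 to Mir409. The long RNA Mirg was measured in clusters shared with microRNA genes, given next. Clusters annotated to several genes at once were left out of these counts. Among them, the cluster of the long RNA Mirg with Mir485 had -1.25, and 2 clusters of Rtl1, the retrotransposon-like gene, with Mir434 and with Mir136 and Mir3071 had -1.35 and -1.30. These were the 3 called when all clusters were tested, and those of Rtl1 lie between Meg3 and Rian, outside the run. Of the 9 others, Rtl1 clusters with other microRNA genes had -0.85, -0.31, -0.22 and -0.20, both further Mirg clusters -0.54, Meg3 clusters -0.09 and 0.04, and that of Rian 0.13.

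**Figure D4:**
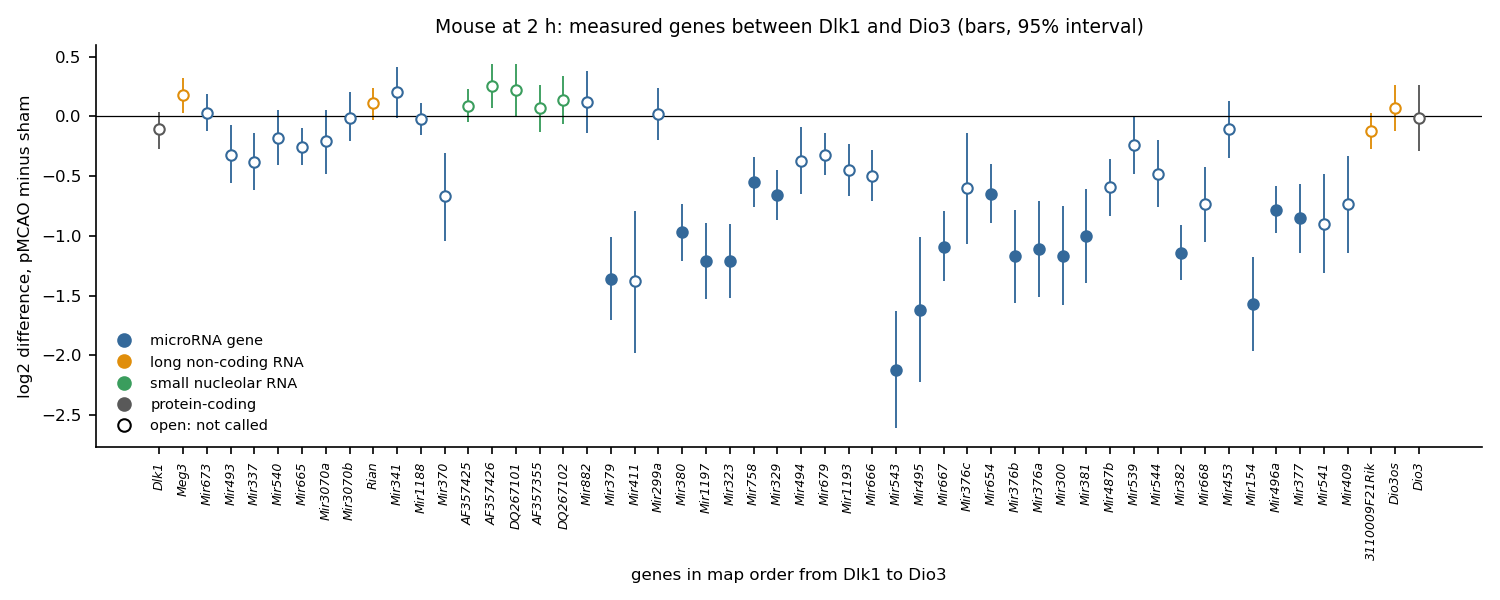
Log2 difference between pMCAO and sham at 2 h with its 95% interval for the measured genes between Dlk1 and Dio3, in map order along the horizontal axis (order only, not distance). MicroRNA genes are blue and the long and small nucleolar RNAs orange and green; filled points were called. The 18 called genes all lie from Mir379 on, down to -2.12 for Mir543, while the long and small nucleolar RNAs shown lie between -0.12 and 0.25. The long RNA Mirg, in clusters shared with microRNA genes, is not shown.

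Outside the region 6 microRNA genes fell. Mir23b, which shares a transcript with Mir27b, read 7.07, 7.13 and 7.08 against 8.00, 8.18 and 8.14, with little spread in either group, and fell by 1.01 ± 0.13 (limma adjusted p 0.00639). It passed without any 1 array. The cluster annotated to Mir27b and its host Aopep read 6.62, 6.58 and 6.70 against 7.35, 7.58 and 7.33. Mir9-1, of the neural microRNA miR-9, read 7.88, 7.93 and 7.84 against 8.56, 8.66 and 8.86, a difference of -0.81 ± 0.12 (0.022). Mir30e had -1.18 ± 0.20 (0.0394), Mirlet7e -0.81 ± 0.14 (0.0394), Mir138-2 -0.78 ± 0.13 (0.0408) and Mir490 -0.55 ± 0.10 (0.0464). Mir30e was lost without pMCAO replicate 1 or 2 or sham replicate 2 or 3 (0.0992 to 0.19). Mir9-1 (0.0698 to 0.0992) and Mirlet7e (0.0951 to 0.191) were lost without any array but sham replicate 1, and Mir138-2 (0.116 to 0.191) and Mir490 (0.0909 to 0.226) without any but pMCAO replicate 1. A dimmer cluster of Mir9-1 read 5.30, 5.60 and 5.47 against 5.63, 5.73 and 5.45. That of Mirlet7e read 3.53, 3.44 and 3.35 against 3.59, 3.68 and 3.51, and both overlapped.

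Several lists of responses known from later ischaemia gave no call at 2 h, beside 0.298% called over all 22180 genes. Lists of this size could well give 0 calls at that share. Over all genes 1711 had an unadjusted limma p under 0.05. Limma called 0 of 19 hypoxia-inducible and glycolytic genes, with 1 at an unadjusted p under 0.05 and a median of 0.02. Vegfa, the vessel growth factor, read 8.93, 8.92 and 8.90 against 8.64, 8.61 and 8.62, a difference of 0.29 (95% interval 0.05 to 0.53, adjusted p 0.536). Limma called 0 of 17 genes of oxidative stress and metal response, with 2 at an unadjusted p under 0.05. Hmox1, which degrades heme, had 0.59 (0.356), with pMCAO replicate 2 at 7.19 and the others at 6.46 and 6.38. Of 23 secreted growth factors limma called 0, with 7 at an unadjusted p under 0.05, 5 of them higher, and a median of 0.02, or -0.01 after quantile normalization. Of 15 Bcl-2 family genes limma called 0, with 4 at an unadjusted p under 0.05: Bcl2l1 had -0.23 and Mcl1 0.17. In the list of 25 reactive astrocyte genes the 3 called were Ptgs2, Hspb1 and Emp1, each described above, and the median was 0.01. Gfap, the intermediate filament that defines such astrocytes, had -0.05 and Vim -0.02.

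Markers of cell types gave 0 calls by limma in any of the 19 lists. In whole pieces fewer cells of a type cannot be told apart from less RNA per cell. The 8 markers of oligodendrocyte precursors had a median of -0.19, with 3 lower at an unadjusted p under 0.05. Olig2, which sets that lineage, read 8.32, 8.46 and 8.32 against 8.59, 8.60 and 8.68, a difference of -0.26 (limma adjusted p 0.229), and Olig1 had -0.23 and Gpr17 -0.31. Their list mean was 7.28, 7.36 and 7.37 in pMCAO against 7.49, 7.48 and 7.51 in sham, with no overlap. The pan-neuronal mean did not overlap either, at 11.20, 11.18 and 11.20 against 11.24, 11.21 and 11.22. In each of these lists 4 of 8 markers had every pMCAO value below every sham value, beside 8.39% of all genes. The 11 neutrophil markers had a median of 0.17, and their mean read 5.00, 5.21 and 5.00 against 4.91, 4.92 and 4.90. Retnlg led them with 0.51 (0.432) and S100a9 had 0.32 (0.571). Of the 11, 9 lay above 0 and 2 below, down to -0.22. At an unadjusted limma p under 0.05, 2 were higher and 1 was lower. The 11 microglial markers had a median of 0.00, and Gjb6, an astrocyte gap junction gene, had -0.43 (0.275).

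At 6 h, in other mice, limma called 1649 genes, 7.43% of those tested. Of the 66 genes called at 2 h, 43 were called the same way at 6 h, which is 65.2% of the 2 h calls and 2.61% of the 6 h calls. Among them were 25 of the 33 rises, beside a background of 3.21% higher, and 18 of the 33 falls, beside 4.23% lower. Both times use the same estimate of a gene's spread, so their calls are not independent. Genes with a small estimate pass more easily at both. Hspa1a had a difference of 4.36 ± 0.23 at 6 h and 4.29 ± 0.23 at 2 h. Npas4 had 2.00 ± 0.26 at 6 h and 3.08 ± 0.26 at 2 h, and Ccl3 3.99 ± 0.36 and 2.36 ± 0.36, but limma's test of the change passed for neither. Nr4a3, Kcnj2, Erdr1, Olfr657, Asb4, Hes3 and Pgm2 were called higher at 2 h and not at 6 h, and for none of these was the change past the threshold. The median of the 43 microRNA genes between Dlk1 and Dio3 was -0.36 at 6 h, when 16 fell, and Mir543 had -0.74 ± 0.22.

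The test of the difference between the times passed for 38 of 22180 genes, 0.171%, with 19 each way (0.0857%). It passed for 2 genes called at 2 h. Ddit4l was 0.57 higher at 2 h and had -0.51 at 6 h, where it read 6.78, 6.98 and 6.90 in pMCAO against 7.48, 7.26 and 7.46 in sham. The change was -1.09 ± 0.13 (limma adjusted p 0.0209). Slc25a13 had -0.46 at 2 h and 0.16 at 6 h, a change of 0.62 ± 0.10 (0.0463). Such calls rested on few arrays: 0 genes passed without sham replicate 2 at 2 h, where 2687 had an unadjusted p under 0.05, and 1 to 12 without another array. Ddit4l was lost without any 1 sham array (0.0545 to 0.115) and Slc25a13 without any 1 of the 6 (0.066 to 0.123).

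**Figure D5:**
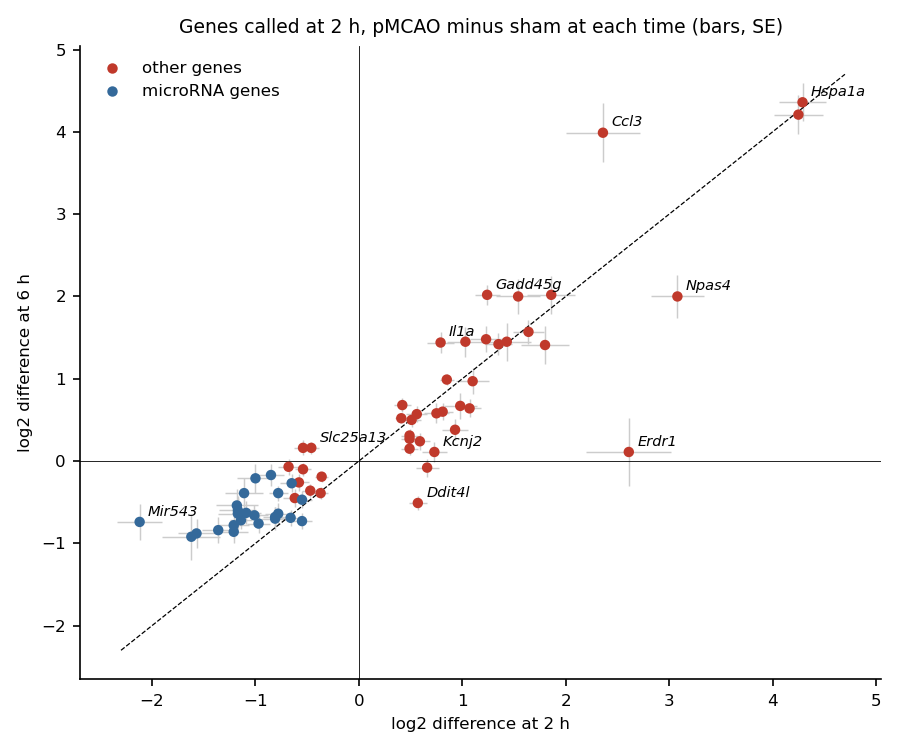
Log2 difference between pMCAO and sham at 6 h (vertical axis) against that at 2 h (horizontal axis) for the 66 genes called at 2 h, with SE bars; microRNA genes are blue, other genes red, and the dashed line marks equal differences. Hspa1a lies on the line with 4.29 and 4.36, Ccl3 above it, Npas4 and Erdr1 below it, and most microRNA genes lie nearer 0 at 6 h, such as Mir543 with -0.74.

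In rats at 2 h, limma called 12 of 18166 genes, 0.0661%, with 6 each way (0.033%). Of the 33 genes that rose in mice, 25 were measured in rat under the same symbol, 24 of these had a difference above 0, and 3 were called higher: Fos (2.44), Ccn1 (1.52) and Jun (0.79). Of the 33 that fell, 27 were measured, 26 had a difference below 0, and 2 were called lower: Fkbp5 (-0.81) and Mir376a (-0.83). The share of all symbols on each side of 0 in rat was not counted. Many of these falls are neighbouring microRNA genes and may not be independent. Hspa1a and Hspa1b were not among the genes measured in rat. Npas4 had 3.71 in rat (adjusted p 0.102), Ccl3 2.28 (0.0504) and Mir543 -1.91 (0.262). The test of the difference between species passed for 2 of 14193 shared symbols, 0.0141%, and for 0 of the genes called in mice at 2 h. The artery's side, the array and the animals' size differed with the species and cannot be told apart from it.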

How the data were processed

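The authors deposited log2 expression values per transcript cluster in a table per species, made from labelled total RNA (WT PLUS kit, per the labels' protocols) with oligo and limma, per the submitters' processing notes. Background correction, normalization, build and versions: not given in the sources used here. No detection calls were used, and no low-value filter was applied. Titles set the groups, because the time field of the labels says 2 h even for 6 h samples. Symbols came from the platform annotation: 23521 of 41345 mouse clusters had 1, 1814 several and 16010 none, and 1082 symbols had several clusters.

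In R 4.3.3, a model of group means was fitted with limma 3.58.1 to the 12 mouse arrays (8 residual degrees of freedom, default eBayes, two-sided, Benjamini-Hochberg). Folds are 2 to the power of a log2 difference. Times were tested by an interaction contrast, and species by the difference of the log2 effects using the moderated errors of both fits and Welch-Satterthwaite degrees of freedom. The fits were tested on simulated data. The members and lists were chosen with earlier results of these data known. Called genes were named, with symbols that end in Rik or start with Gm or Olfr, among others, only if among the 15 largest changes, and of each list up to 6 members by lowest unadjusted p with others of their families. Outside this rule, chosen after their values were seen, are Olfr657 and, for their roles, the prostaglandin synthases, Arc, Atf4, Bag3, Cdkn1a, Gfap, Hif3a, Mmp9, Nfkbia, Plat, Tsc22d3 and Vim. The lists share members. Alternatives were arrays left out, normalizations, filters, cluster rules, eBayes settings, array weights, a replicate block and a striatal marker covariate.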

Additional observations from a re-analysis of the deposited data

Results flagged for a closer look

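These genes had 2 h differences that departed from the 6 h or rat difference by a test of the change. Ddit4l (-1.09) and Slc25a13 (0.62) are described above. Among listed genes not called at 2 h, Gadd45b had 0.73 at 2 h and 2.33 at 6 h, a change of 1.60 ± 0.23 (limma adjusted p 0.0379). It was lost without any 2 h array but pMCAO replicate 2 (0.0724 to 0.119). Cdkn1a changed by 1.38 (0.0463), from -0.11 to 1.27. The vasodilator peptide gene Adm changed by 0.94 (0.04), the mitochondrial kinase gene Pdk4 by 1.01 (0.0466) and the vessel destabiliser Angpt2 by 1.05 (0.0416). The endothelial transporter gene Slco1a4 changed by -0.90 (0.0463) and the microglial marker Selplg by -0.75 (0.0379), from -0.11 to -0.85. These 6 were lost without any 1 of the 6 arrays at 2 h (adjusted p 0.0661 to 0.119, for Slco1a4 from 0.0817 and for Angpt2 from 0.072).

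Plat differed between species: 0.06 in mouse and 0.94 in rat, a difference of -0.88 ± 0.15 (adjusted p 0.0448 from the limma effects). It was lost without mouse pMCAO replicate 1 or 3 or sham replicate 1 or 3 (0.054 to 0.142).

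Clusters with several gene symbols or none were outside the main comparison. When all clusters were tested, 14 of them were called. That of Hspa8 and Snord14e, a small nucleolar RNA, read 8.95, 9.78 and 9.58 in pMCAO against 8.11, 8.03 and 8.22 in sham, 1.32 higher (limma adjusted p 0.0292). The largest rise among them, 1.62, was in a cluster without a symbol.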

How the results depend on the processing

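Every called gene kept its direction under each alternative in which it was tested. The count of 66 (33 rises, 33 falls) became 23 to 42 (12 to 25 and 11 to 22) without 1 array. It was 23 (14 and 9) from the 6 arrays alone, 110 (56 and 54) with trend and robust eBayes (without Ccl3 and Dnajb1, 0.0676 each, Mir490, Erdr1 and Krt25, 0.0634 to 0.135), 102 (50 and 52) with array weights, 25 (14 and 11) with all clusters tested, 35 (18 and 17) with the striatal covariate and 29 (16 and 13) at a log2 limit of 1. Among genes above the median level, 91 were called (52 rises). Quantile normalization left 56 and ended the calls of Asb4, Mir381, Mir490, Alox12b, Hspb1, Il1a, Mir654, Mir758, Nfkbiz and Slc16a14 (adjusted p 0.0503 to 0.0739). Centring called 35 rises and 31 falls, without Mir381 and Slc16a14. With the mean of a symbol's clusters 60 were called, without Rgs2, Mir9-1, Hspb1, Emp1, Mir376a and Krt25 (0.0504 to 0.19). The cause of these changes was not tested.

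The 38 genes whose effect changed between the times became 0 to 12 without 1 array (0 without sham replicate 2), 351 with trend and robust eBayes and 419 above the median level. The 2 species differences became 1 to 3 without 1 array, 4 with array weights, and 1 with quantile normalization, with centring or above the median level.

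Same-numbered pMCAO and sham arrays did not deviate together (correlations -0.01, -0.12 and -0.01), so the numbers were not taken as pairs. With the replicate block 35 genes were called at 2 h (18 rises, 17 falls), 0 changed between times (limma, 2887 at an unadjusted p under 0.05) and 1 differed between species.

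Precision was limited by 3 arrays a group, and the files give no signal over background, so low readings such as that of Olfr657 have no known floor.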

Other observations

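The genes that came closest to the threshold at 2 h with a log2 difference of at least 0.5 included more microRNA genes and, beside Hsph1, Mir487b and Mir411 given above, 4 genes of other roles. Mirlet7b read 3.33, 3.64 and 3.96 in pMCAO against 4.60, 4.74 and 4.56 in sham, a difference of -0.99 (limma adjusted p 0.0529). Mirlet7d had -0.85 (0.076) and Mir145a -0.87 (0.0501). Ccrl2, a receptor that presents chemerin on activated cells, read 6.12, 6.15 and 5.96 against 5.32, 5.39 and 5.39, a difference of 0.71 (0.0529). Lrrc32, which holds latent TGF-beta on the cell surface, had 0.54 (0.0553), and Atp8b1, a lipid flippase, 0.53 (0.0662). Mettl7a1, a methyltransferase-like gene, read 8.37, 8.23 and 8.15 against 8.88, 8.95 and 8.69, a difference of -0.59 (0.0646).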
